A study of Mus musculus with 6 samples.

Results

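Enamel matrix and ameloblast genes were examined in the temporomandibular joint (TMJ) libraries of Igf2bp2 knockout and wild-type mice. They comprised 8 of the 22032 genes in the count table, picked by symbol: the secretory-stage matrix genes Amelx, Ambn and Enam, the maturation-stage genes Amtn, Odam and Klk4, and the ameloblast genes Sp6 and Slc13a5, which were assigned to neither stage. The genes were picked with their difference between KO and WT already known, so that difference is given below as a description, with no p-value, and supports nothing further. All 8 passed the filter on low counts. Bulk poly(A) RNA was sequenced from TMJ tissue of mice aged 10 weeks, with 3 libraries labelled Igf2bp2-KO and 3 labelled Igf2bp2-WT from littermates. IGF2BP2 is an RNA-binding protein that recognises m6A marks on mRNA, and the libraries compare the joint of mice labelled as lacking it with that of wild-type mice. The allele, the deleted part of the gene, any Cre driver and whether each library is 1 animal are not stated in the labels.

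Enamel is laid down by ameloblasts, epithelial cells that first secrete a protein matrix and later, in the maturation stage, remove that matrix while mineral replaces it. In the mouse the incisor grows throughout life, so ameloblasts of every stage persist in adult incisors. The joint itself forms no enamel. Amelogenin, encoded by Amelx, makes up most of the secretory matrix. Ameloblastin, from Ambn, attaches ameloblasts to it, and enamelin, from Enam, is needed for the first mineral to form. Amelotin and ODAM, from Amtn and Odam, lie in the thin layer between maturation-stage ameloblasts and enamel, and the serine protease KLK4 breaks down the remaining matrix. Sp6 encodes epiprofin, a transcription factor of the dental epithelium, and Slc13a5 a sodium-coupled citrate transporter that teeth need for normal enamel.

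The promoters of the 6 stage-assigned genes are shown because these genes were lower together in KO. Of the 8 genes, 7 had a promoter sequence in the RefSeq table of build GRCm38.p6, which is not the build of the counts (mm39). The 150 bases before each start site read as follows, 5′ to 3′ on the gene's strand, with every CCAAT or its reverse complement ATTGG in capitals.
Amelx, chrX:169187210-169187359 (- strand): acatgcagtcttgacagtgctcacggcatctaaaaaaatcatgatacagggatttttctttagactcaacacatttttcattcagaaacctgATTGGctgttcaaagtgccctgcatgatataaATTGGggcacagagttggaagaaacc
Ambn, chr5:88455841-88455990 (+ strand): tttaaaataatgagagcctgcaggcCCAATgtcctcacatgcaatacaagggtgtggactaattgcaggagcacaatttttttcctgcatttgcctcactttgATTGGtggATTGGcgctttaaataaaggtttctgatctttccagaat
Enam, chr5:88487825-88487974 (+ strand): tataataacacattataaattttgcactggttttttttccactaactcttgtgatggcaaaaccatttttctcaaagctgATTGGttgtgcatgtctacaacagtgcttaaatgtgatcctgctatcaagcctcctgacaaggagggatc
Amtn, chr5:88375958-88376107 (+ strand): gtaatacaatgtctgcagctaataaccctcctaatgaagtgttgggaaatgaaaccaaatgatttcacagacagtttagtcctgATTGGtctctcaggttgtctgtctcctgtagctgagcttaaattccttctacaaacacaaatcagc
Odam, chr5:87884860-87885009 (+ strand): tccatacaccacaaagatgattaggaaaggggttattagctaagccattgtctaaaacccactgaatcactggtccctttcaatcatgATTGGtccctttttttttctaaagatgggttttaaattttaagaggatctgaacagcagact
Klk4, chr7:43881010-43881159 (+ strand): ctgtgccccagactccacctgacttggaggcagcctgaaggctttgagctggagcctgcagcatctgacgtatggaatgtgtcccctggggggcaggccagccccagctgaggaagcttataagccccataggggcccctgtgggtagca
The windows of all but Klk4 held an ATTGG that was part of the longer motif TGATTGG, which began 60 bases before the start in Amelx, 49 in Ambn, 72 in Enam, 68 in Amtn and 64 in Odam. Ambn also had a second GATTGG 40 bases before the start and a CCAAT on the other strand at 125 bases, and Amelx a second ATTGG at 26 bases. The 250 bases before the start of Klk4 held no CCAAT on either strand, and of the 2 start sites of Slc13a5 listed, 1 had a CCAAT 57 bases before it. CCAAT on either strand, which contains every match of the longer motif, was present within 250 bases in 37.5% of the 27025 genes in that table, and CCAATCA, the reverse complement of TGATTGG, in 8.38%. The longer motif was searched after it had been seen in these sequences. A match describes the letters in a window and does not show a binding site.

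The targeted gene, Igf2bp2, had 13, 14 and 10 counts in KO 1 to 3, against 38, 20 and 24 in WT 1 to 3 (log2 fold change -1.80, edgeR FDR 0.00589). Total counts ran from 28551236 to 35094127 per library, of which mitochondrial genes took 85.3% to 86.0% in KO and 90.6% to 90.8% in WT. That left 4604575 to 4899680 nuclear counts in the KO libraries and 2625472 to 3205190 in the WT libraries. In the median gene, the variance between KO 1 and KO 3 was 0.941 times that of random sampling, and between WT 2 and WT 3 it was 0.965 times, so both pairs were within sampling noise and each entered as a single sample. Means and SDs therefore stand for 2 samples per group (KO 1+3 and KO 2, WT 1 and WT 2+3), and levels are in CPM, counts relative to a library size adjusted by the trimmed mean of M-values (TMM). Of the genes of the joint, Col2a1, the cartilage collagen, had 1.25 ± 0.450 CPM in KO and 1.47 ± 0.0953 in WT, while Prg4, the lubricant of the joint surface, had 46.0 ± 4.78 CPM in the KO samples and 11.3 ± 0.862 in the WT samples (SD, n = 2).

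The 3 secretory-stage matrix genes were lower in every KO library than in every WT library, as were 19.1% of all tested genes in CPM. Amelx had 10466, 10584 and 10735 counts in KO 1 to 3, against 25876, 20497 and 22172 in WT 1 to 3. Even the raw counts did not overlap, although the KO libraries held more nuclear counts. On the CPM scale Amelx averaged 262 ± 13.8 CPM in the KO samples and 883 ± 2.69 in the WT samples (SD, n = 2), which gave a log2 fold change of -1.75 (SE 0.14). Amelx made up 0.216% to 0.230% of nuclear counts in KO and 0.747% to 0.807% in WT. Per kilobase of its longest transcript it ranked 15th in KO and 1st in WT among the 13990 tested nuclear genes with a known length. Amelogenin mRNA was thus the most abundant nuclear transcript of these WT joint libraries by that measure. Amelx lies inside a gene on the opposite strand, Arhgap6, which encodes a GTPase-activating protein. Arhgap6 had 32, 26 and 34 counts in KO 1 to 3, against 30, 32 and 32 in WT 1 to 3, far below Amelx in each library.

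Ambn had 5598, 6070 and 5641 counts in KO 1 to 3, against 19213, 12978 and 14655 in WT 1 to 3. The level of this gene was 144 ± 0.439 CPM in the KO samples and 614 ± 61.2 in the WT samples (SD, n = 2), which gave a log2 fold change of -2.09 (SE 0.14). WT 1 stood above WT 2 and WT 3, at 654 CPM against 566 and 569, and the KO libraries were within 142.6 to 143.8 CPM. Enam, whose product is the largest and scarcest of the 3 matrix proteins, had 580, 754 and 586 counts in KO 1 to 3, against 1484, 1067 and 1223 in WT 1 to 3. It averaged 16.4 ± 2.14 CPM in the KO samples and 49.0 ± 2.45 in the WT samples (SD, n = 2), which gave a log2 fold change of -1.58 (SE 0.13). KO 2 was the highest KO library for Enam and the lowest for Amelx, so the secretory genes did not shift as a block within the group.

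The maturation-stage genes were lower in KO by a larger factor, from far fewer counts. Amtn had 119, 109 and 122 counts in KO 1 to 3, against 481, 415 and 494 in WT 1 to 3. It averaged 2.84 ± 0.347 CPM in the KO samples and 17.6 ± 1.64 in the WT samples (SD, n = 2), which gave a log2 fold change of -2.62 (SE 0.14). Odam had 104, 102 and 98 counts in KO 1 to 3, against 370, 346 and 367 in WT 1 to 3. The groups of Odam were nearly as far apart as those of Amtn, at 2.51 ± 0.112 CPM in the KO samples and 13.7 ± 1.46 in the WT samples (SD, n = 2), which gave a log2 fold change of -2.45 (SE 0.14). The protease gene Klk4 had the fewest counts of the 6, with 13, 16 and 13 counts in KO 1 to 3, against 71, 51 and 48 in WT 1 to 3. The level of this gene was 0.357 ± 0.0340 CPM in the KO samples and 2.24 ± 0.272 in the WT samples (SD, n = 2), which gave a log2 fold change of -2.65 (SE 0.30). No library of one group reached the range of the other in any of these 3 genes. KO lay below WT without overlap in 19.1% of all tested genes. Reads that kallikrein genes may share cannot be placed without the authors' rule for them. Klk7, next to Klk4 but for genes absent from the table, had at most 6 counts in a library.

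**Figure D1:**
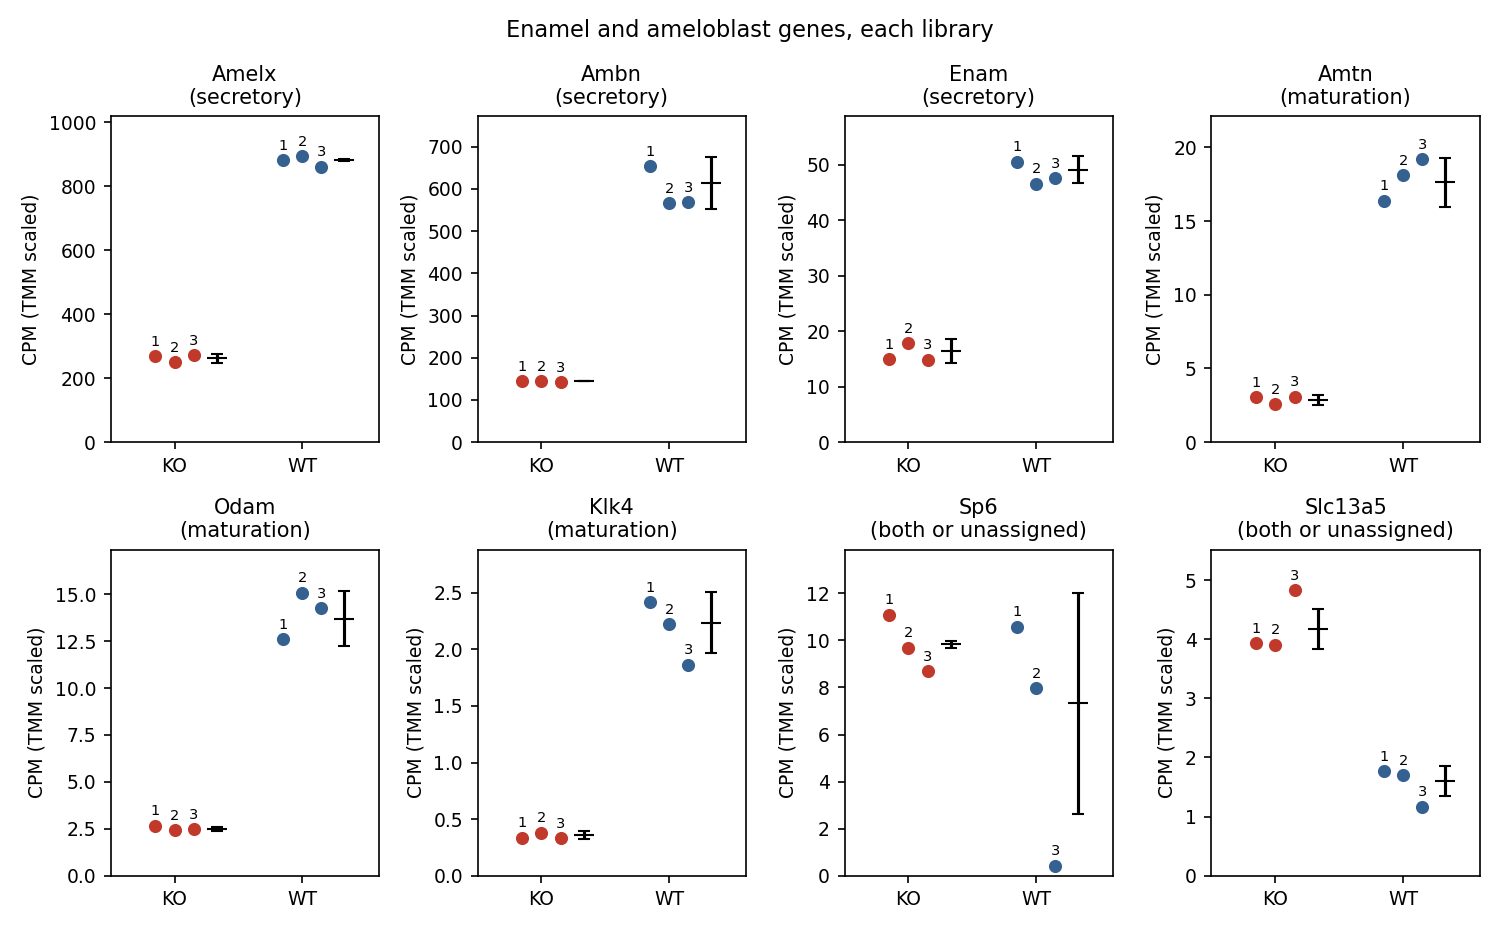
Expression of the 8 genes in each library, as TMM-scaled CPM on linear axes that start at 0. Numbered points are the 3 KO libraries (left) and 3 WT libraries (right), and the black bars are the mean ± SD over the 2 samples counted per group; the KO points lie below all WT points for the 6 stage-assigned genes, above them for Slc13a5, and WT 3 stands apart at 0.427 CPM for Sp6.

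Slc13a5 differed in the opposite direction from the matrix genes. It had 153, 165 and 191 counts in KO 1 to 3, against 52, 39 and 30 in WT 1 to 3. The level of this gene was 4.17 ± 0.337 CPM in the KO samples and 1.602 ± 0.250 in the WT samples (SD, n = 2), which gave a log2 fold change of 1.40 (SE 0.20). The 3 KO libraries all lay above the 3 WT libraries, as was the case in 19.2% of all tested genes. The noncoding gene Gm34252, which overlaps Slc13a5, had 9 counts in each KO library, against 0, 3 and 4 in WT 1 to 3. Slc13a5 is not particular to ameloblasts, as it is also made in liver, bone and nerve cells.

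The transcription factor gene Sp6 had a value that differed with whether an overlapping gene was counted with it. Its counts were 432, 409 and 344 in KO 1 to 3, against 311, 183 and 11 in WT 1 to 3. WT 3 was thus far below the others, and its squared gap to WT 2 was 87.5 times the variance expected from counting, although those libraries agreed within sampling noise in the median gene. The antisense noncoding gene Gm11532, listed by RefSeq with the synonym Sp6os, overlaps Sp6 and had 4, 99 and 155 counts in KO 1 to 3, against 0, 0 and 226 in WT 1 to 3. WT 3 thus had few counts at Sp6 and the most of any library at Gm11532. Summed over both genes the locus had 436, 508 and 499 counts in KO 1 to 3, against 311, 183 and 237 in WT 1 to 3. As the strand setting of the counting is not known, reads of the 2 genes cannot be told apart.

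Counted alone, Sp6 had 9.84 ± 0.140 CPM in the KO samples and 7.32 ± 4.69 in the WT samples (SD, n = 2), which gave a log2 fold change of 0.47 (SE 0.58). It was at 1.31 without WT 1 and at 0.07 without WT 3. Leaving out WT 1 leaves 1 WT sample, the sum of WT 2 and WT 3, which hides their gap in Sp6. Summed with Gm11532, an alternative chosen after seeing the data, the locus had 12.0 ± 0.0874 CPM in the KO samples and 9.66 ± 1.39 in the WT samples (SD, n = 2), which gave a log2 fold change of 0.33 (SE 0.13). On either count Sp6 was not lower in KO by the fitted value, unlike the matrix genes. Of 8712 genes with at least 100 counts over WT 2 and WT 3, only 4, with Sp6 and Gm11532 among them, differed between those libraries by as much as Sp6 did (4.11 on the log2 scale). The other two, Abi2 and Shroom4, were chosen by this count after their values were seen.

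**Figure D2:**
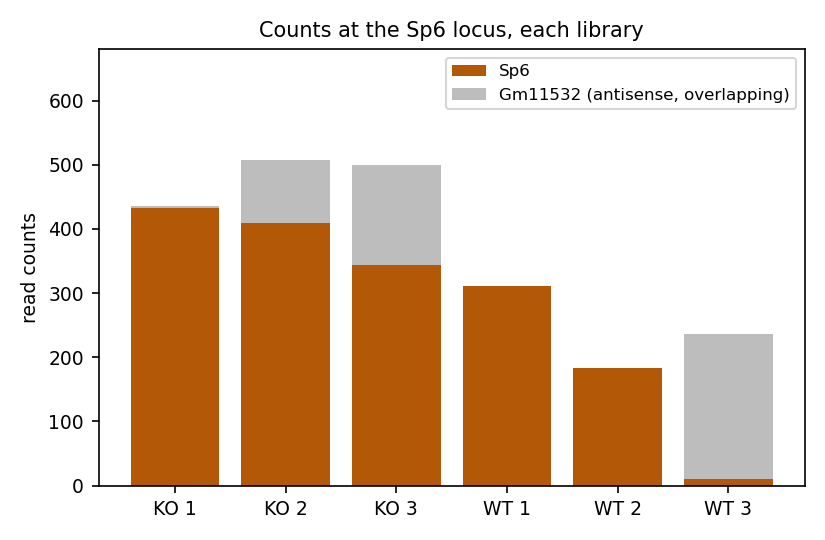
Read counts of Sp6 and of the overlapping antisense gene Gm11532, stacked for each library (KO left, WT right). In WT 3 the locus had 11 counts at Sp6 and 226 at Gm11532, whereas WT 1 and WT 2 had none at Gm11532.

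All 6 stage-assigned genes were called lower and Slc13a5 higher by edgeR's quasi-likelihood test at a false discovery rate (FDR) of 0.05, where 8.48% of the 14632 tested genes were called lower and 9.15% higher. The KO and WT libraries of those 6 did not overlap, with KO lower, as was the case in 19.1% of all tested genes. These counts describe genes chosen on this same contrast, and nothing is read from them. With plain total counts, that is without TMM, the median of all tested genes stood at 0.54 on the log2 scale in place of -0.01, and the 6 genes were still lower, with log2 fold changes of -1.03 for Enam to -2.10 for Klk4. Fewer ameloblasts in the tissue and less RNA per ameloblast cannot be told apart in bulk tissue. How much tooth or gland each sample held was not tested and cannot be told apart from them either.

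The order of levels among the 8 genes also differed between the groups. Per kilobase of transcript, the KO levels were 311 CPM for Amelx, 77.8 for Ambn, 3.00 for Enam, 2.78 for Amtn, 2.72 for Sp6, 1.83 for Odam, 1.25 for Slc13a5 and 0.286 for Klk4. The WT levels per kilobase were 1050.4 CPM for Amelx, 331 for Ambn, 17.2 for Amtn, 9.99 for Odam, 8.94 for Enam, 2.02 for Sp6, 1.79 for Klk4 and 0.481 for Slc13a5. Enam, Amtn and Sp6 in KO lay within the spread between samples of each other, as did Odam and Enam, and Sp6 and Klk4, in WT.

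Ratios between these genes within a library do not depend on library size or on the scaling. The summed counts of the 3 secretory genes over those of the 3 maturation genes were 70.5, 76.7 and 72.8 in KO 1 to 3, against 50.5, 42.5 and 41.9 in WT 1 to 3. On the log2 scale the ratio was 6.196 ± 0.061 in KO and 5.49 ± 0.150 in WT (SD over 3 libraries, of which 2 in each group count as 1 sample elsewhere), a difference of 0.71. All KO libraries were above all WT libraries, so the 3 maturation genes were lower relative to the 3 secretory ones in KO. Whether the stages of the ameloblasts differed was not tested. Left without Amelx, which dominates the secretory sum, the difference was 0.54. Within the secretory stage, Amelx over Ambn was 1.87, 1.74 and 1.90 in KO 1 to 3, against 1.35, 1.58 and 1.51 in WT 1 to 3. Amelx over Enam overlapped between groups, at 18.0, 14.0 and 18.3 in KO 1 to 3, against 17.4, 19.2 and 18.1 in WT 1 to 3. Within the maturation stage, Amtn over Odam overlapped too, at 1.14, 1.07 and 1.24 in KO 1 to 3, against 1.30, 1.20 and 1.35 in WT 1 to 3. The proportion of Amtn to Odam thus overlapped between groups whose levels did not.

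**Figure D3:**
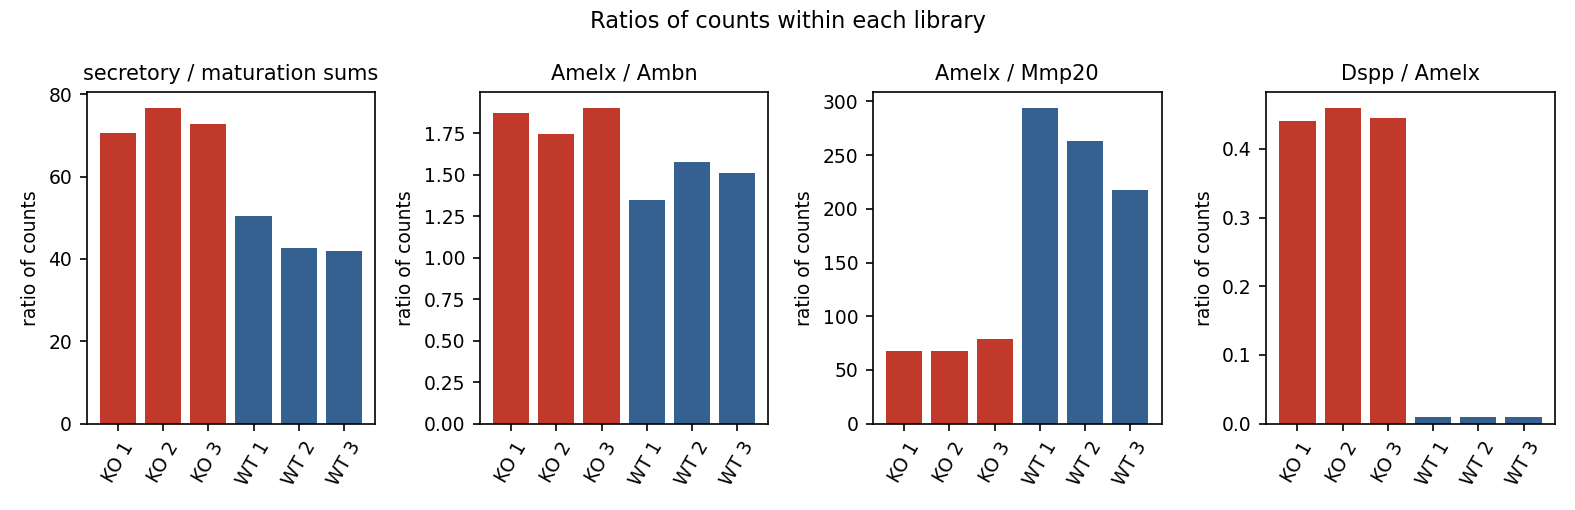
Ratios of raw counts within each library (red KO, left; blue WT, right), on linear axes that start at 0. From left to right the panels show the secretory over the maturation sum, 70.5 to 76.7 in KO and 41.9 to 50.5 in WT; Amelx over Ambn; Amelx over the protease gene Mmp20; and the dentin gene Dspp over Amelx.

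Other genes listed for ameloblasts did not follow the matrix genes as a whole in this bulk tissue, and the cells behind their counts were not tested. Lists of secretory-stage and maturation-stage genes that leave out the 8 held 20 tested genes. Of these, 4 were lower and 2 higher in KO and 14 did not pass (edgeR, FDR 0.05). Over all tested genes 8.48% were lower and 9.15% higher. The median log2 fold change of the 20 was 0.11, against -0.01 for all tested genes. Scaled by plain nuclear counts, 4 were again lower and 2 higher. With plain total counts the balance turned, to 2 lower and 10 higher, and without KO 2 it was 2 lower and 1 higher. Among the 11 secretory-stage genes 3 were lower and 1 higher. Acp4, an acid phosphatase of secretory ameloblasts, had 47, 65 and 43 counts in KO 1 to 3, against 233, 102 and 148 in WT 1 to 3. It was the closest of these to the matrix genes in size, at -2.29 on the log2 scale (SE 0.24, edgeR FDR 6.87e-05). Lamb3, a chain of the laminin that anchors epithelia, and Col17a1, a collagen of the same anchoring junctions, were also lower, at -1.41 (SE 0.15, FDR 1.785e-05) and -0.93 (SE 0.25, FDR 0.0177). Other stratified epithelia make both as well. Fam20a, a cofactor of the kinase that phosphorylates enamel proteins, was higher (log2 fold change 0.77, SE 0.20, FDR 0.0178). Without KO 2 neither Col17a1 nor Fam20a passed (FDR 0.148 and 0.215), and neither did under DESeq2 (0.0953 and 0.0794). Col17a1 was also not called with plain total counts (FDR 0.225).

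Mmp20, the metalloprotease that trims matrix proteins as they are secreted, is the secretory-stage partner of the 3 matrix genes. It had 155, 157 and 136 counts in KO 1 to 3, against 88, 78 and 102 in WT 1 to 3. The level of this gene was 3.73 ± 0.00859 CPM in the KO samples and 3.37 ± 0.501 in the WT samples (SD, n = 2), a difference of 0.14 on the log2 scale (SE 0.17, FDR 0.665) that did not pass. With plain total counts, without TMM, Mmp20 was higher in KO instead (0.69, FDR 0.00497). Amelx over Mmp20 was 67.5, 67.4 and 78.9 in KO 1 to 3, against 294, 263 and 217 in WT 1 to 3. Amelx and the gene of the enzyme that processes its product were thus in different proportion in the groups. Acp4 over Amelx overlapped between groups instead, at 0.0045, 0.0061 and 0.0040 in KO 1 to 3, against 0.0090, 0.0050 and 0.0067 in WT 1 to 3. The cells that gave the Mmp20 counts cannot be told in bulk tissue. Dlx3, which encodes a homeobox factor of tooth and hair, had 7.05 ± 1.37 CPM in KO and 6.71 ± 2.27 CPM in WT (FDR 0.861).

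Of the 16 listed maturation-stage genes 9 were tested, of which 1 was higher, 1 lower and 7 did not pass. The shares over all tested genes were 9.15% higher and 8.48% lower. With plain total counts 6 of the 9 were higher and 0 lower. Wdr72 and Slc24a4, which serve vesicle traffic and calcium export in maturation-stage ameloblasts, had at most 8 counts in a library and were not tested. The higher gene was Car6, a carbonic anhydrase that salivary glands secrete, with 25.2 ± 1.76 CPM in KO and 2.71 ± 0.473 CPM in WT (log2 fold change 3.24, FDR 8.52e-09). Car6 also belongs to the salivary list, of which all 12 tested genes were higher in KO in these libraries. The lower gene was Car2, a carbonic anhydrase shared with osteoclasts (log2 fold change -0.88, FDR 0.00987). Car2 was not called without KO 2 (FDR 0.117), under DESeq2 (0.0546) or with plain total counts (0.231). Cnnm4, a magnesium transporter, had a log2 fold change of 0.67 (FDR 0.136) and passed with plain total counts (0.00318).

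**Figure D4:**
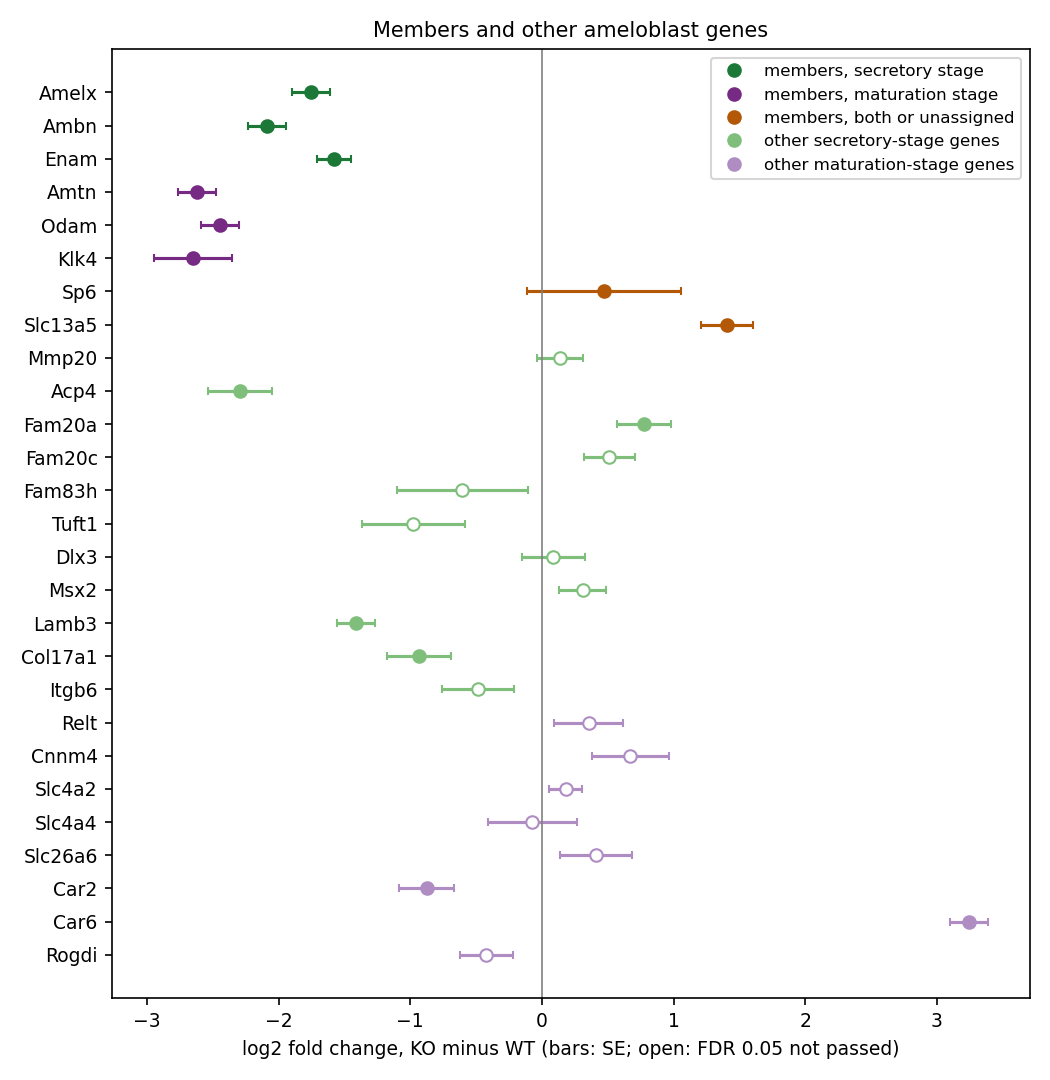
Log2 fold change, KO minus WT, with its standard error for the 8 genes (dark) and for other tested ameloblast genes (light; open symbols did not pass an FDR of 0.05). The 6 matrix and protease genes lie between -2.65 and -1.58, Acp4 lies among them at -2.29, and most other ameloblast genes lie nearer 0.

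Genes whose human counterparts cause amelogenesis imperfecta, the inherited enamel defects, moved in both directions. Of 17 tested, 12 of which are also in the lists above, 5 were lower and 3 higher (edgeR, FDR 0.05), with a median of -0.03. The shares over all tested genes were 8.48% lower and 9.15% higher. Scaled by plain total counts, 3 were lower and 7 higher. Besides Acp4, Lamb3 and Col17a1, the lower ones were Cldn19 (log2 fold change -1.54, SE 0.12, FDR 1.07e-06) and Lama3 (-0.96, SE 0.16, FDR 0.0011). Cldn19 encodes a claudin that Schwann cells also use, and Lama3 another chain of the laminin of Lamb3. Besides Fam20a, the higher ones were the calcium sensor gene Stim1 and Ltbp3, which binds latent TGF-beta, at 0.43 (FDR 0.0192) and 0.40 (FDR 0.0275) on the log2 scale. None of these 3 passed without KO 2 (FDR 0.215 for Fam20a, 0.164 for Stim1 and 0.277 for Ltbp3), nor in the DESeq2 Wald test (0.0794, 0.0985 and 0.109). Stim1 did not pass without KO 1 either (FDR 0.0602), Stim1 and Ltbp3 did not with plain nuclear counts (FDR 0.054 and 0.0868), and with plain total counts Lama3 did not (FDR 0.0713).

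Of 10 tested genes of the dental epithelium at large, 1 was lower and 1 higher, near the 17.6% called in either direction over all genes, with a median log2 fold change of -0.14. The counts were 0 lower and 3 higher with plain total counts. Shh, a signal of the enamel organ, was lower (-0.76, SE 0.18, FDR 0.00979). Notch1, a receptor that many other tissues also make, was higher (0.67, SE 0.12, FDR 0.00112). Shh was not called without KO 2 (FDR 0.123), under DESeq2 (0.0563) or with plain total counts (0.377). Krt17 at 0.54 (FDR 0.064) and Isl1 at -0.82 (FDR 0.207) did not pass, although Krt17 did with 6 separate libraries (0.0226, and 0.0384 with the replicate block) and with plain total counts (0.000304).

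Markers of other cell types moved alongside the enamel genes, some in the opposite direction. Of 10 odontoblast genes, 3 were higher and 1 lower, beside 9.15% higher and 8.48% lower over all tested genes. Their summed level was 142 to 148 CPM in the KO libraries and 35.03 to 38.8 CPM in the WT libraries. Dspp carried that difference: without it the other 9 genes summed to 28, 27.2 and 27.6 CPM in KO 1 to 3, against 29, 29.8 and 26.2 in WT 1 to 3. Dmp1 and Mepe, matrix genes shared with bone, had log2 fold changes of -0.68 (FDR 0.132) and -0.997 (FDR 0.0951) and did not pass, although Dmp1 did without WT 3 (0.0335) and with no filter on low counts (0.0363). Of the 10, 5 were higher and 0 lower with plain total counts. Dspp, the dentin gene of odontoblasts, had 4618, 4865 and 4770 counts in KO 1 to 3, against 263, 207 and 226 in WT 1 to 3 (log2 fold change 3.72, SE 0.13, FDR 1.01e-09). Dspp over Amelx was therefore 0.441, 0.460 and 0.444 in KO 1 to 3, against 0.0102, 0.0101 and 0.0102 in WT 1 to 3. Dspp and the enamel matrix genes thus differed in opposite directions between the groups. Phex was also higher (2.03, FDR 4.8e-06), as was Sall1 on 78 counts in KO and 17 in WT (FDR 0.0345), while Nes was lower (-0.49, FDR 0.00654). Sall1 did not pass without KO 2, WT 1 or WT 3 (FDR 0.322, 0.0597 and 0.0775), nor under DESeq2 (0.125). Nes did not pass without KO 2 (FDR 0.151), and with plain total counts its sign turned (0.06, FDR 0.722).

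General epithelial genes were closer between the groups. Of 8 tested, 2 were lower and 1 higher, beside 8.48% lower and 9.15% higher over all tested genes. The summed level of the list was 23.3 to 25.2 CPM in the KO libraries and 28.4 to 30.4 CPM in the WT libraries. Krt5 and Krt14, the keratins of basal epithelium, were at -0.49 (FDR 0.0199) and -0.19 (FDR 0.442) on the log2 scale, and Cdh1, which encodes E-cadherin, at -0.91 (FDR 0.00244). Krt13, a keratin of the oral lining, had 31 counts over KO and none over WT (FDR 0.00808). Epcam had -0.32 (FDR 0.392). Krt13 did not pass without KO 2 (FDR 0.0854), nor did Krt5 (0.18), which also missed under DESeq2 (0.115). With plain total counts Cdh1 was not called (FDR 0.118), and the signs of Krt5 and Krt14 turned (0.06 and 0.36), which gave 3 higher and 0 lower of the 8. Amelx over Krt14 was 47.6, 55.1 and 58.7 in KO 1 to 3, against 158, 171 and 150 in WT 1 to 3. Amelx over Krt5 was 51.3, 43.7 and 43.3 in KO 1 to 3, against 109, 113 and 104 in WT 1 to 3. The amelogenin gene was thus lower in KO relative to these keratin genes too. The size of that gap depended on the gene chosen, at -1.57 for Krt14 and -1.24 for Krt5 on the log2 scale of pooled counts. All 12 salivary genes were higher in KO, with a median of 3.75 on the log2 scale. Aqp5 was not called under DESeq2 (FDR 0.0968) or without KO 2 (0.172), nor Mucl2 without KO 2 (0.0766), which left 11 and 10 of 12. The sum of the list was 540 to 570.5 CPM in the KO libraries and 42.0 to 46.1 CPM in the WT libraries, with Bpifa2, a major parotid protein, at 266 ± 4.61 CPM in the KO samples and 21.2 ± 0.226 in the WT samples (SD, n = 2). Of 9 osteoblast genes tested, Bglap (log2 fold change 1.61, FDR 1.26e-05) and Col1a1 (1.11, FDR 0.000134) were higher, and Runx2 (-1.39, FDR 0.000318) and Spp1 (-0.77, FDR 0.000391) lower, although Spp1 was not called with plain total counts (FDR 0.163). Of 6 joint genes tested, Prg4 was higher (2.02, FDR 2.14e-07) and Col10a1, a collagen of hypertrophic cartilage, lower (-2.19, FDR 0.0011), while Sox9 (FDR 0.196) and Comp (FDR 0.346) did not pass. The part of these marker differences in the enamel result was not tested.

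Ambn, Enam and Amtn lie side by side on mouse chromosome 5, with Odam further along the same secretory gene cluster, and the genes tested beside them were not lower by the test. BC037156, next to Odam and listed by RefSeq with the synonym FDC-SP, had 540, 530 and 542 counts in KO 1 to 3, against 65, 28 and 39 in WT 1 to 3 (log2 fold change 2.93, SE 0.19, edgeR FDR 6.85e-07). Prol1, next to Amtn, had 8, 10 and 9 counts in KO 1 to 3 and none in WT (FDR 0.012), a call lost without KO 2 (FDR 0.134). On the other side of Enam, Jchain, the joining chain of antibodies, had 28 counts over KO and 30 over WT and did not pass (FDR 0.455), and Utp3 and Rufy3 had log2 fold changes of 0.36 and 0.40 (FDR 0.113 and 0.14). Apart from the enamel genes themselves, the neighbours tested in the cluster were thus either higher or not called. Scaled by plain total counts, Utp3 and Rufy3 were called higher (FDR 0.000155 and 0.00063). Hccs and Msl3, beside Amelx on the X chromosome, had log2 fold changes of -0.11 and 0.00 (FDR 0.748 and 0.989), the second of which was called higher with plain total counts (0.00396). Beside Sp6, Sp2, Scrn2 and Mrpl10 did not pass (FDR 0.588 to 0.969), nor did Txndc17, Med31, Xaf1 and Tekt1 near Slc13a5 (FDR 0.0783 to 0.834). Mrpl10, Xaf1 and Tekt1 were called higher with plain total counts (FDR 0.014, 0.00422 and 0.00104), and Tekt1 also without KO 3 (0.033).

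The genes most like the enamel genes across the 6 libraries were found by the root mean square distance between log2(CPM + 0.1) profiles, each centred on its own mean, among 10983 genes of at least 1 CPM. Closest to the mean profile of all 8 were Efcc1, Vwa1, Runx2, H2-Ab1, C7, Nfasc, Slc25a10, Ttc9, Sema4a and Akr1b8, at distances of 0.085 to 0.160. That mean includes the Sp6 value of WT 3, and the members themselves lay 0.287 to 1.79 from it. For the mean of the 6 stage-assigned genes alone, a choice made after seeing the data, genes close to it were Shc4, Ugt8a, Bpifb9a and Frzb, at 0.087 to 0.135, against 0.071 to 0.277 for the 6 genes themselves. The 6 libraries share their 2 groups, so these distances are a description only.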

How the data were processed

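TRIzol was used to extract RNA and beads to select poly(A) RNA, per the labels' protocols. Per the submitters' processing notes, the build was mm39 and the tools were StringTie 2.1.5 and HISAT2 2.1.0, with no roles named. Raw counts, not normalized, were deposited as a single table of 22032 gene symbols by the authors. The annotation, strand setting and rule for shared reads are not given in the sources used.

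Groups came from the sample titles. Libraries of a group whose median ratio of observed to counting variance, with 2 counts per read pair, was under 1.1 (a limit set with these ratios known) over nuclear genes of at least 20 summed counts were summed: KO 1 with KO 3 (0.941) and WT 2 with WT 3 (0.965). Other pairs had 1.31 to 1.63. Genes at 2 counts outnumbered genes at 1 by 4.69 to 5.06 times, which is why 2 counts per pair were taken. edgeR 4.0.16 in R 4.3.3 kept genes by filterByExpr (minimum count 10), scaled by TMM and fitted a robust quasi-likelihood model of group alone, with Benjamini-Hochberg adjustment over all 14632 tested genes. The SE is the absolute log2 fold change (KO minus WT) divided by the square root of F. The fit was tested on simulated data. Transcript lengths are the longest GENCODE vM21 transcript per symbol. The p-values measure only the spread between samples, which may be technical, since the labels do not say that libraries are separate animals.

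The members and lists were chosen with earlier results of these data known. Named by rule were all members, up to 4 genes of smallest p and the most abundant gene of each list, overlapping genes and 3 neighbours on either side, and the 10 most alike genes; some genes it takes are not reported here, and Mmp20, Krt14, Wdr72, Slc24a4, Stim1, Col2a1, Abi2, Shroom4, Shc4, Ugt8a, Bpifb9a, Frzb and Igf2bp2 are named outside it or after their values were seen. Alternatives were other scalings, filters, DESeq2 1.42.0, 6 separate libraries, the replicate number as a block, and leaving out each library.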

Additional observations from a re-analysis of the deposited data

How the results depend on the processing

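Of the 135 refitted log2 fold changes of the 8 genes, none changed sign and 124 moved by less than 1 SD between samples; all 6 stage-assigned genes were lower in each setting that tested them. Under the filter of at least 50 counts in 3 libraries Klk4 was not tested. The largest moves of the 6 came from plain total counts, with no TMM, added after seeing the data: Amelx was then at -1.21, Ambn at -1.55, Amtn at -2.07 and Odam at -1.89. Sp6 ranged from 0.07 without WT 3 to 1.31 without WT 1, and was 0.33 when summed with Gm11532; the cause was not tested.

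Over all genes the count of 2580 called became 1634 with the DESeq2 Wald test, 1149 without KO 2, which leaves 1 KO sample assumed to vary like the WT ones, and 7734 (7348 higher and 386 lower, against 1339 and 1241) with plain total counts. Leaving out 1 library gave 1149 to 2434. The stage difference of 0.71 was 0.54 without Amelx and 0.66 to 0.80 when 1 library was left out. Same-numbered KO and WT libraries did not deviate together (correlations of -0.04, -0.09 and 0.03). As 2 libraries of each group count as 1 sample, these correlations cannot exclude a pairing. With 6 separate libraries and the replicate number as a block 2941 genes were called, and without the block 3452. Depth limits Klk4 most, with 42 counts over KO.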
